A study of Mus musculus with 21 samples.

Results

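Erythroid transcription factors are the DNA-binding proteins and cofactors that switch on the red cell programme, and 9 of their genes were followed here: Gata1, Klf1, Gfi1b, Zfpm1, Sox6, Tal1, Nfe2, Bcl11a and Ldb1. They were chosen by gene symbol from the 14273 genes of the deposited table, and all 9 were present and passed the filter on low values. RNA sequencing covered 21 libraries from spleens of C57BL/6 mice in 7 groups of 3. Of the 7, 6 were Ter119+CD71+ sorts, split by CD45 into a positive and a negative gate, from mice that carried a tumor, mice that were anemic and newborn mice (tumor, anemia and neonatal below). The last was myeloid-derived suppressor cells (MDSC) of tumor carriers, gated on CD11b and Gr1. Ter119 marks red cells and their precursors, CD71 is the transferrin receptor, and CD45 is a leukocyte antigen that is lost as erythroid cells mature. The labels name no tumor line, no cause of the anemia, no age and no genotype, and a healthy adult group was not analysed here. Nor do they give the origin of replicates (animals or repeated sorts), and p-values thus measure a spread between libraries that may be technical.

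GATA1 binds DNA as the central regulator of red cell genes and works with FOG1, the protein of Zfpm1. TAL1 sits beside it in a complex held together by LDB1, which also brings distant enhancers to promoters. KLF1 binds CACCC boxes and drives globin, haem and membrane genes, while GFI1B is a repressor that restrains earlier and alternative programmes. NFE2 is the DNA-binding subunit of NF-E2, which acts at the globin control region and in platelet production. SOX6 and BCL11A together silence embryonic and fetal globin genes, and BCL11A is also required for B cell development.

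A level is the deposited log2 value raised from the log, and since no source names its scale, levels are compared between groups and not between genes. They summed to 227961 to 349261 per library, and read depth is not given. The sort labels were checked against 9 red cell markers, whose summed share of all values was 4.26% to 5.44% in tumor CD45+ libraries, 19.3% to 38.7% in tumor CD45- libraries and 0.0387% to 0.395% in MDSC. Replicate 3 had the lowest red cell share in each of the 7 groups, with 10.2% in anemia CD45- cells, against 34.3% and 29.7% in the other two libraries, and 2.03% in neonatal CD45+ cells, against 4.76% and 7.14%. The gap was widest in proportion within the Ter119+CD71+ sorts for anemia CD45+ cells, at 1.11% against 12.1% and 8.16%. Neutrophil markers (16 genes) took 4.74% to 11.2% of all values in tumor CD45+ libraries, 0.213% to 1.29% in anemia CD45+ libraries, 3.79% to 4.83% in neonatal CD45+ libraries and at most 0.109% in any CD45- library. A CD45+ sort that holds fewer erythroid cells and one whose cells hold less of an erythroid RNA cannot be told apart in these bulk libraries.

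In all 3 states, 7 of the 9 genes were lower in CD45+ than in CD45- cells, and in each of those 21 comparisons the 3 libraries of one group lay wholly below the 3 of the other. The 7 were Gata1, Klf1, Gfi1b, Zfpm1, Sox6, Tal1 and Nfe2. Of all genes tested, 12.5% in tumor, 13.5% in anemia and 12% in neonatal cells had CD45+ libraries wholly below the CD45- ones, and 53.8%, 50.4% and 55.9% had them wholly above. The remaining pair, Bcl11a and Ldb1, was not lower in any state. Of all 11195 genes tested, 10.9% were lower in tumor, 11.3% in anemia and 10.3% in neonatal CD45+ cells, and 50.2%, 47.4% and 49.6% were higher (limma, Benjamini-Hochberg adjusted p below 0.05). The median log2 fold change of the 9 genes was -3.19 in tumor, -2.58 in anemia and -2.91 in neonatal cells, against 0.75, 0.68 and 0.75 over all genes tested. Median-ratio scaling took the all-gene median to 0.06, 0.04 and 0.06, and the share of calls that were higher to 55.5%, 53.8% and 55.1%, against 82.2%, 80.7% and 82.8% without it. Under quantile normalization that share was 48.6%, 48.9% and 51.1%. The 7 genes were lower in all 3 states under each of these scalings, and they were also called without replicate 3 of the anemia CD45+ cells, where the count of called genes was 8 in tumor, 9 in anemia and 7 in neonatal cells. With replicate 3 of every group left out, an alternative chosen after seeing the data, the counts were 8, 9 and 9, and the 2 added in neonatal cells were Bcl11a (1.21, limma adjusted p = 0.0107) and Ldb1 (0.56, adjusted p = 0.0134), both higher. The share of all genes called in that fit is not given here.

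**Figure D1:**
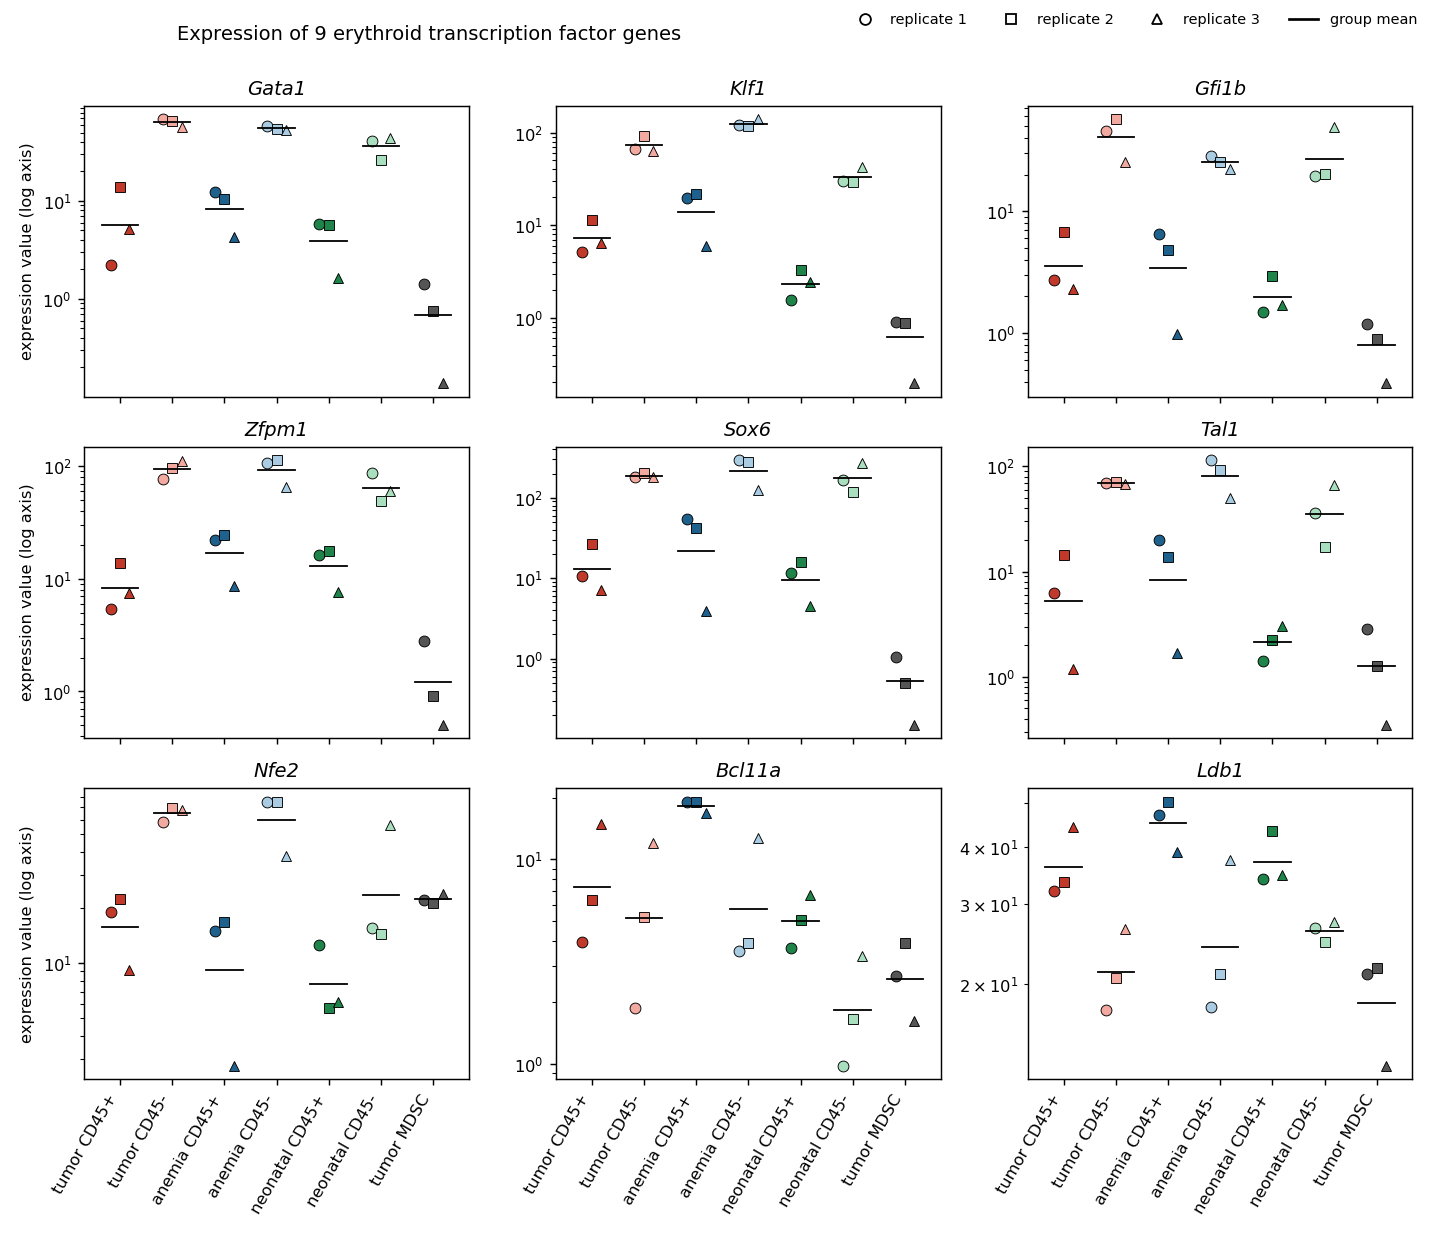
Expression values (log axis, each panel on its own range) of the 9 genes in the 21 libraries, 1 marker shape per replicate number, with a bar at the group mean taken on log2(value + 1). In Gata1, Klf1, Gfi1b, Zfpm1, Sox6, Tal1 and Nfe2 each CD45+ group sits below its CD45- group, in Bcl11a replicate 3 is the highest of both tumor groups and of anemia CD45- cells, and in Ldb1 the 7 groups lie within a narrow range.

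Gata1 values were 2.21, 14.0 and 5.14 in tumor CD45+ cells and 68.8, 66.3 and 57.6 in tumor CD45- cells. They were 12.3, 10.5 and 4.26 in anemia CD45+ cells and 58.5, 53.8 and 52.8 in anemia CD45- cells. Neonatal CD45+ cells had 5.76, 5.70 and 1.64, and neonatal CD45- cells had 41.1, 26.1 and 43.6. The highest CD45+ library of any state, at 14.0, was below the lowest CD45- library, at 26.1. The log2 fold change of CD45+ over CD45- cells, on the log2(value + 1) scale used throughout, was -3.29 ± 0.48 (SE) in tumor (limma adjusted p = 1.61e-05), -2.59 ± 0.48 in anemia (adjusted p = 0.000186) and -2.91 ± 0.48 in neonatal cells (adjusted p = 6.22e-05).

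Zfpm1, whose protein FOG1 binds GATA1 directly, was lower too, by log2 fold changes that were smaller in size outside the tumor carriers. It had 5.37, 13.9 and 7.56 in tumor CD45+ cells and 77.4, 96.4 and 112 in tumor CD45- cells, and averaged 8.95 ± 4.43 in tumor CD45+ libraries and 95.2 ± 17.3 in tumor CD45- libraries (SD, n = 3 each). In anemia it had 22.2, 24.6 and 8.64 in CD45+ cells and 106, 113 and 64.9 in CD45- cells. In neonates it had 16.2, 17.8 and 7.72 in CD45+ cells and 87.4, 49.5 and 60.3 in CD45- cells. No library of the CD45+ sorts reached the lowest CD45- library of its own state. The log2 fold change was -3.35 ± 0.41 in tumor, -2.38 ± 0.41 in anemia and -2.20 ± 0.41 in neonatal cells, with limma adjusted p of 2.44e-06, 9.79e-05 and 0.000209. The difference between states did not pass the test. For Zfpm1 tumor minus neonatal was -1.15 (95% CI -2.37 to 0.07, limma adjusted p = 0.58) and tumor minus anemia -0.97 (-2.19 to 0.25, adjusted p = 0.473).

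Klf1 had the smallest standard error of the 7 differences. Its values were 5.12, 11.3 and 6.49 in tumor CD45+ cells and 65.7, 92.6 and 62.8 in tumor CD45- cells. In anemia they were 19.8, 21.7 and 5.99 in CD45+ cells and 119, 117 and 140.2 in CD45- cells. In neonates they were 1.56, 3.24 and 2.41 in CD45+ cells and 29.7, 29.1 and 42.5 in CD45- cells. Every CD45+ library was below every CD45- library, also between states. The log2 fold change was -3.15 ± 0.38 in tumor (limma adjusted p = 2.12e-06), -3.08 ± 0.38 in anemia (adjusted p = 2.84e-06) and -3.36 ± 0.38 in neonatal cells (adjusted p = 1.27e-06). The CD45 difference of Klf1 in tumor minus that in anemia was -0.07 (95% CI -1.20 to 1.07).

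Tal1, the basic helix-loop-helix partner of GATA1, and the repressor gene Gfi1b were lower by similar amounts. Tal1 had 6.23, 14.3 and 1.19 in tumor CD45+ cells against 69.5, 71.3 and 67.9 in tumor CD45- cells. It had 19.7, 13.9 and 1.68 in anemia CD45+ cells against 114, 91.3 and 50.1 in anemia CD45- cells, and 1.42, 2.24 and 3.03 in neonatal CD45+ cells against 36.4, 17.3 and 66.8 in neonatal CD45- cells. The log2 fold change of Tal1 was -3.50 ± 0.70 in tumor, -3.12 ± 0.70 in anemia and -3.51 ± 0.70 in neonatal cells, with limma adjusted p of 0.000382, 0.00106 and 0.000395. The tumor CD45- libraries of Tal1 lay close together, while the tumor CD45+ libraries spread from 1.19 to 14.3. Gfi1b had 2.73, 6.71 and 2.28 in tumor CD45+ cells against 45.7, 57.3 and 25.6 in tumor CD45- cells. It had 6.57, 4.79 and 0.991 in anemia CD45+ cells against 28.5, 25.2 and 22.4 in anemia CD45- cells, and 1.5, 2.95 and 1.72 in neonatal CD45+ cells against 19.7, 20.4 and 49.2 in neonatal CD45- cells. No CD45+ library of Gfi1b, in any state, exceeded 6.71, and no CD45- library was under 19.7. Its log2 fold change was -3.19 ± 0.47 in tumor, -2.57 ± 0.47 in anemia and -3.23 ± 0.47 in neonatal cells, with limma adjusted p of 2.05e-05, 0.000192 and 2.04e-05.

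On the log2(value + 1) scale Sox6 had the most negative log2 fold change of the 9 in each state and also the widest error. Adding 1 shrinks differences more for genes with lower values, so this order depends on the scale. It was at 10.7, 26.8 and 7.22 in tumor CD45+ cells and at 183, 203 and 179 in tumor CD45- cells. In anemia it was at 54.1, 42.3 and 3.90 in CD45+ cells and at 292, 279.9 and 126 in CD45- cells. In neonates it was at 11.7, 15.9 and 4.58 in CD45+ cells and at 166, 118 and 269.5 in CD45- cells. In all 3 CD45+ groups replicate 3 was the lowest library. The log2 fold change was -3.77 ± 0.71 in tumor (limma adjusted p = 0.000219), -3.27 ± 0.71 in anemia (adjusted p = 0.000795) and -4.04 ± 0.71 in neonatal cells (adjusted p = 0.000119). Without anemia CD45+ replicate 3 the anemia value was -2.16 for Sox6 (limma adjusted p = 0.0029), and for Tal1 it was -2.22 (adjusted p = 0.00756).

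Nfe2 was the least changed of the 7 in tumor and neonatal cells. Its values were 19.0, 22.2 and 9.17 in tumor CD45+ cells and 58.1, 69.8 and 68.1 in tumor CD45- cells. Anemia CD45+ cells had 15.0, 16.6 and 2.76, and anemia CD45- cells had 75.0, 75.2 and 38.0. Neonatal CD45+ cells had 12.5, 5.71 and 6.17, and neonatal CD45- cells had 15.4, 14.3 and 55.8. The neonatal groups came close to touching, and only replicate 3 of the CD45- cells stood well above them. Nfe2 changed by -1.98 ± 0.56 in tumor (limma adjusted p = 0.00608), -2.58 ± 0.56 in anemia (adjusted p = 0.000865) and -1.49 ± 0.56 in neonatal cells (adjusted p = 0.031). The neonatal call was lost without CD45- replicate 3 (-0.87, adjusted p = 0.19), without CD45+ replicate 2 (-1.30, adjusted p = 0.0956) and without CD45+ replicate 3 (-1.35, adjusted p = 0.0888).

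Ldb1, the bridging cofactor, was at 32.0, 33.5 and 44.2 in tumor CD45+ cells and at 17.5, 20.7 and 26.4 in tumor CD45- cells. It was at 46.9, 50.3 and 39.0 in anemia CD45+ cells and at 17.8, 21.1 and 37.4 in anemia CD45- cells. Neonatal CD45+ cells had 34.0, 43.3 and 34.7, and neonatal CD45- cells had 26.6, 24.7 and 27.3. The libraries of the 2 sorts did not overlap in any state. Its log2 fold change was 0.74 ± 0.26 in tumor (limma adjusted p = 0.0207), 0.87 ± 0.26 in anemia (adjusted p = 0.00821) and 0.49 ± 0.26 in neonatal cells (adjusted p = 0.115, and 0.0473 without anemia CD45- replicate 3). Beside the all-gene medians of 0.75 and 0.68, Ldb1 lay near the middle of all genes. Median-ratio scaling gave -0.19 in tumor (adjusted p = 0.414) and 0.01 in anemia (adjusted p = 0.97), quantile normalization ended the tumor call (adjusted p = 0.136), and so did leaving out haemoglobin genes (adjusted p = 0.162). The tumor call was also lost without CD45+ replicate 3 (adjusted p = 0.0832), CD45- replicate 1 (0.0886) or CD45- replicate 2 (0.055), and the anemia call without CD45- replicate 1 (0.0554) and in a fit of those 2 groups alone (0.0506).

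Bcl11a was at 3.94, 6.33 and 14.9 in tumor CD45+ cells and at 1.87, 5.23 and 12.0 in tumor CD45- cells. Anemia CD45+ cells had 19.2, 19.1 and 16.8, and anemia CD45- cells had 3.55, 3.89 and 12.7. Neonatal CD45+ cells had 3.67, 5.03 and 6.68, and neonatal CD45- cells had 0.976, 1.67 and 3.36. The tumor groups overlapped, the anemia and neonatal groups did not, and replicate 3 was the highest library in 5 of the 6 Ter119+CD71+ groups. Its log2 fold change was 0.44 ± 0.53 in tumor (limma adjusted p = 0.489), 1.52 ± 0.53 in anemia (adjusted p = 0.0205) and 1.08 ± 0.53 in neonatal cells (adjusted p = 0.0877). The neonatal adjusted p was 0.0131 with the replicate number as a block and 0.0235 in a fit of those 2 groups alone. The anemia call was lost under median-ratio scaling (0.73, adjusted p = 0.167) and quantile normalization (0.86, adjusted p = 0.106), and without anemia CD45- replicate 1 (adjusted p = 0.0922) or replicate 2 (0.0817). An antisense gene, 4930538E20Rik, overlaps an exon of Bcl11a in GENCODE vM21, and since the sources used here do not say that counting used strand, reads of the pair cannot be told apart.

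**Figure D2:**
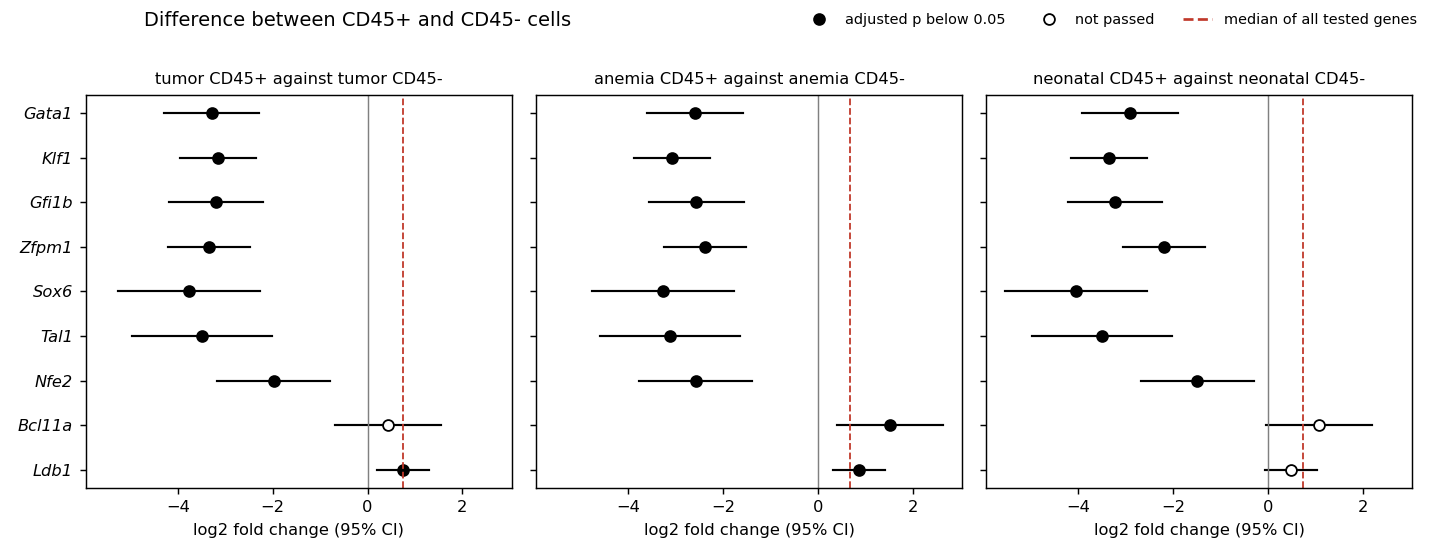
Log2 fold change of CD45+ over CD45- cells with its 95% confidence interval for the 9 genes in tumor, anemia and neonatal cells, filled where the adjusted p is below 0.05, with the median of all tested genes as a dashed line. The 7 genes named above lie left of 0 in every panel while Ldb1 lies near the dashed line and Bcl11a right of 0 with intervals that reach past 0 in tumor and neonatal cells.

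The CD45 difference was not shown to vary with the state of the mouse for any of the 9 genes. Of all tested genes, 2.2% passed the interaction test for tumor against anemia, 1.08% for tumor against neonatal and 6.93% for anemia against neonatal cells, and 0 of the 9 did in each by limma. At an unadjusted p below 0.05 it was also 0 of the 9, against 15.2%, 9.56% and 19.3% of all genes. The smallest limma adjusted p was 0.473, for Zfpm1 in tumor minus anemia. The confidence intervals were wide: for Sox6, tumor minus anemia was -0.50 (95% CI -2.61 to 1.61), and for Tal1 it was -0.38 (-2.47 to 1.71).

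Promoters of 4 genes that were lower in CD45+ cells are printed with that of Bcl11a, which was not. They show which letters of the GATA motif and of the pattern CCNCNCCC the start regions hold. Windows of Sox6 and Tal1, also lower, and of Ldb1, not lower in any state, are counted below and not printed. Windows of 250 bases before to 50 bases after a transcript start came from RefSeq on build GRCm38.p6, which held windows for 8 of the 9 genes and none for Nfe2. They are printed 5′ to 3′ on the strand of the gene, with capitals on matches, on either strand, to GATA motifs (NGATAN where the leading N is adenine or thymine and the closing N is adenine or guanine), to the CACCC and GC box pattern CCNCNCCC, and to the core TGANTCA of NF-E2 sites. The window of Gata1 lies on chrX:7967861-7968160 (minus strand), Klf1 on chr8:84901732-84902031 (plus), Gfi1b on chr2:28621933-28622232 (minus), Zfpm1 on chr8:122281891-122282190 (plus) and Bcl11a on chr11:24080445-24080744 (plus).
Gata1: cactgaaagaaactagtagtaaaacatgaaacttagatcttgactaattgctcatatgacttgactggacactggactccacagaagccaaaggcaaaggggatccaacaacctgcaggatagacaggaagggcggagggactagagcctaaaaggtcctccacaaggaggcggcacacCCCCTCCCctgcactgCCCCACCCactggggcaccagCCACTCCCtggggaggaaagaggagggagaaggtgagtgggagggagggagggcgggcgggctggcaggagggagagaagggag
Klf1: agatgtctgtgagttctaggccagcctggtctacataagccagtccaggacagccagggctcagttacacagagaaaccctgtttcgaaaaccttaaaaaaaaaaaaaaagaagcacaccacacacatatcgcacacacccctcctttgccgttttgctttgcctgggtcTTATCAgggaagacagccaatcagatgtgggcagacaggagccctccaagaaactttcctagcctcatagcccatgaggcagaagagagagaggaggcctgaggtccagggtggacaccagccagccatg
Gfi1b: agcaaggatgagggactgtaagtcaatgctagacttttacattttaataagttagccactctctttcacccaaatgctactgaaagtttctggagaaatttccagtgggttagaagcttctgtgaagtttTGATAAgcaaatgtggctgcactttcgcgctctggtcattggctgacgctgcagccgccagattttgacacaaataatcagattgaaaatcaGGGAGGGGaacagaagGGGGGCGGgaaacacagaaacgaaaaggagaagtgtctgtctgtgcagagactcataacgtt
Zfpm1: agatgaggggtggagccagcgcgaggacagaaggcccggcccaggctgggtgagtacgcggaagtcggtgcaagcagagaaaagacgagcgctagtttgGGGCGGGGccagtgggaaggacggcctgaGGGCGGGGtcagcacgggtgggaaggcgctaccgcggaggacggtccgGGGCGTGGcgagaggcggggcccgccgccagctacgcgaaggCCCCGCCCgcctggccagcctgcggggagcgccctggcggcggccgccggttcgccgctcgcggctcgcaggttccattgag
Bcl11a: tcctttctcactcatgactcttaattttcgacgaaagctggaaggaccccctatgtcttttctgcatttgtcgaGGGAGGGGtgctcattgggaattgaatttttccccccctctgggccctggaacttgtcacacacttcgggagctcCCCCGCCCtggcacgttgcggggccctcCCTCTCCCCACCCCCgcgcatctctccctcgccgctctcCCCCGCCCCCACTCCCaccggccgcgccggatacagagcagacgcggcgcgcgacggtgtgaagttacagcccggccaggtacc

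The Klf1 window held a GATA match on the opposite strand, TGATAA, from 80 to 75 bases before the start, seen in capitals as its reverse complement. It held no CCNCNCCC match, though the letters CACCC occur in it in lower case. Gfi1b held TGATAA from 120 to 115 bases before its start, with 2 CCNCNCCC matches closer to it. Gata1 and Zfpm1 held no GATA match in these letters and window, with 3 and 4 CCNCNCCC matches. None of the matches in Gfi1b and Zfpm1 holds the letters CACCC. Bcl11a held 8 CCNCNCCC matches, some of them overlapping, and no GATA match. GATA matches also stood in window 3 of Ldb1 (2), windows 3 and 4 of Sox6 (2 and 1) and window 1 of Tal1 (1). Over all 16 windows of the 8 genes, 6 (37.5%) held a GATA match and 10 (62.5%) a CCNCNCCC match. Of 32851 RefSeq windows of the same length, 29.8% and 49.5% did. No window of the 8 genes held TGANTCA, which 7.81% of all windows did, and a match or its lack in these letters says nothing of binding.

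To see whether the genes kept their proportions, each was set as a log2 ratio to Gata1 within its library, over 9 CD45+ and 9 CD45- libraries. A lower ratio in CD45+ libraries means a larger difference than that of Gata1, and levels of different genes are not compared by it. An exact two-sided permutation test, stratified by state with 8000 arrangements, was made for 8 ratios. Gfi1b differed by -0.07, with means of -0.78 ± 0.57 in CD45+ and -0.71 ± 0.49 in CD45- libraries (SD, n = 9 each, exact p = 0.7785). Klf1 differed by -0.27 (exact p = 0.258), Zfpm1 by 0.29 (exact p = 0.123) and Tal1 by -0.45 (exact p = 0.255), and none of these 4 passed (adjusted over 8 ratios 0.197 to 0.7785).

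Of the 8 ratios, those of Bcl11a and Ldb1 to Gata1 set the sorts wholly apart. Gata1 was already lower in CD45+ cells and these 2 were not, so this largely restates the Gata1 difference. The share of all genes whose ratio to Gata1 would separate the sorts was not computed. Bcl11a averaged 0.55 ± 0.96 in CD45+ and -3.39 ± 0.87 in CD45- libraries, a difference of 3.94. Ldb1 averaged 2.58 ± 0.78 in CD45+ and -1.05 ± 0.63 in CD45- libraries, a difference of 3.63. Both had the smallest p that the arrangements can give (exact p = 0.00025, adjusted over 8 ratios 0.001). Sox6 had a lower ratio in CD45+ libraries, at 1.15 ± 0.72 in CD45+ and 1.92 ± 0.47 in CD45- libraries (a difference of -0.76, exact p = 0.0195, adjusted p = 0.0455). Nfe2 had a higher ratio, at 0.76 ± 0.90 in CD45+ and -0.15 ± 0.62 in CD45- libraries (a difference of 0.91, exact p = 0.02275, adjusted p = 0.0455). By state the Nfe2 difference was 1.31 in tumor, 0.01 in anemia and 1.42 in neonatal cells. The Sox6 and Nfe2 calls were each lost in 13 of 18 fits that left out 1 library, within -0.90 to -0.53 for Sox6 and 0.70 to 1.07 for Nfe2, and both were lost with a pseudocount of 0.1.

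**Figure D3:**
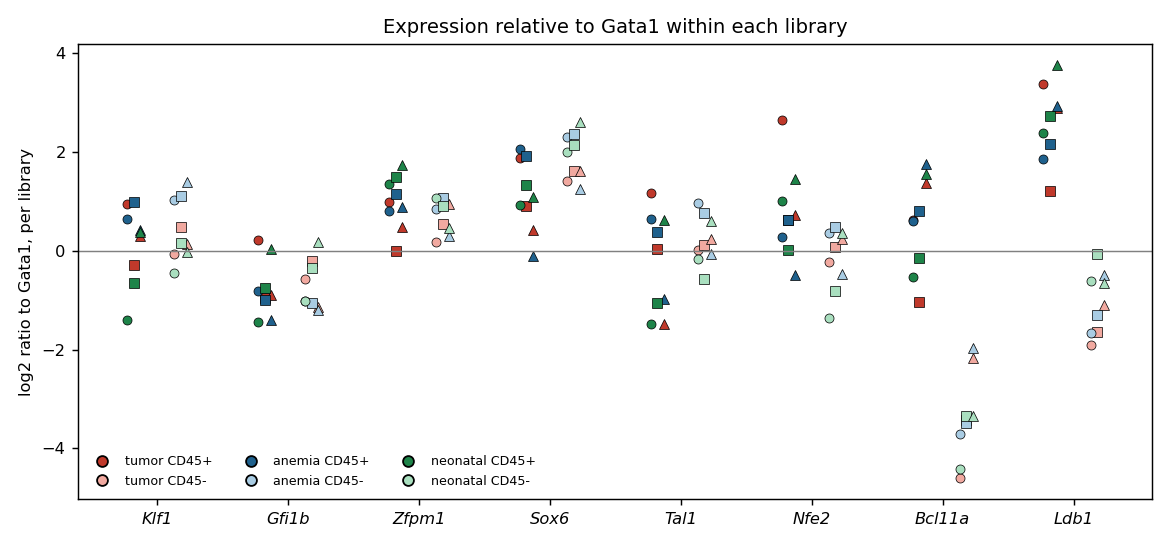
Log2 ratio of each gene to Gata1 on log2(value + 1), 1 point per library, with CD45+ libraries on the left and CD45- libraries on the right of each gene, colours for the state and shapes for the replicate number. Klf1, Gfi1b, Zfpm1 and Tal1 overlap between the sorts, and Bcl11a and Ldb1 separate them fully.

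Between states, Klf1 passed in the most comparisons, 3 of 6. In anemia CD45+ cells it was 19.8, 21.7 and 5.99, and in neonatal CD45+ cells 1.56, 3.24 and 2.41, without overlap. Its log2 fold change was 2.16 ± 0.38 (limma adjusted p = 0.000535), and 9.08% of all genes were higher in that comparison. In CD45- cells Klf1 was 119, 117 and 140.2 in anemia against 29.7, 29.1 and 42.5 in neonates, a log2 fold change of 1.88 ± 0.38 (adjusted p = 0.00815), where 0.947% of all genes were higher. Both calls held in each of the 18 fits that left out 1 library. Klf1 was the only one of the 9 called in the CD45- sort of anemia against neonatal mice, and the other 8 had adjusted p of 0.234 or more.

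Tumor CD45+ cells had Klf1 at 5.12, 11.3 and 6.49, above every neonatal CD45+ library. Its log2 fold change was 1.31 ± 0.38 (limma adjusted p = 0.0475), with 2.2% of all genes higher, and 14 of the 18 fits leaving out 1 library lost the call. Without tumor CD45+ replicate 2 the value was 1.02 (adjusted p = 0.248) and without neonatal CD45+ replicate 1 it was 1.12 (adjusted p = 0.212). The call was also lost under 6 other settings, median-ratio scaling (adjusted p = 0.0827) and quantile normalization (0.0749) among them. The other 8 genes did not pass in that comparison, their values running from -0.60 for Zfpm1 to 0.98 for Tal1.

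Bcl11a was the other gene to pass between states. Its 3 anemia CD45+ libraries, 16.8 to 19.2, were above the 3 neonatal ones, 3.67 to 6.68, with a log2 fold change of 1.69 ± 0.53 (limma adjusted p = 0.0317). The adjusted p was 0.0542 with a pseudocount of 0.1, and it ran from 0.0535 to 0.117 without any of anemia CD45+ replicates 1, 2 or 3 or neonatal CD45+ replicates 1 or 2. B cell markers (11 genes in the table) moved with it, summing to 1036 to 1185 in anemia CD45+ libraries, 154 to 718 in tumor CD45+ libraries, 116 to 362 in neonatal CD45+ libraries, and at most 16.6 in any CD45- library. All 11 were higher in anemia than in neonatal CD45+ cells, Cd79a at 248 to 278 against 34.1 to 98.9 among them. In tumor CD45+ cells replicate 3 had both the highest Bcl11a, 14.9, and the highest B cell sum, 718. In CD45- cells replicate 3 had high Bcl11a, 12.0 in tumor and 12.7 in anemia, with B cell sums of 4.07 and 2.97. The part of B cells in the Bcl11a values was not tested.

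Between tumor and anemia CD45+ cells 0 of the 9 genes passed, where 10.7% of all genes did, and 3 had an unadjusted limma p below 0.05, against 22.9% of all genes. Their libraries overlapped in each gene but Bcl11a, which was wholly lower in tumor cells, as were 11.9% of all genes, and whose log2 fold change was -1.21 (95% CI -2.33 to -0.10, limma adjusted p = 0.173, and -1.46 with 0.0345 under quantile normalization). Klf1 was at -0.85 (-1.65 to -0.05, adjusted p = 0.189) and Zfpm1 at -0.94 (-1.80 to -0.07, adjusted p = 0.174). Without anemia CD45+ replicate 3, the library with the lowest red cell share of the Ter119+CD71+ sorts, Klf1 was lower in tumor cells, at -1.39 (limma adjusted p = 0.00807), Zfpm1 at -1.38 (adjusted p = 0.0335) and Sox6 at -1.81 (adjusted p = 0.0368). Without tumor CD45+ replicate 3, Bcl11a was lower, at -1.68 (adjusted p = 0.0414). Without that anemia library Sox6 and Tal1 were also higher in anemia than in neonatal CD45+ cells, by 2.20 (adjusted p = 0.00729) and 2.48 (adjusted p = 0.0101), so the count of called genes between these states depends on that library. With replicate 3 of every group left out the counts were 5 in tumor against anemia, 3 in tumor against neonatal and 6 in anemia against neonatal CD45+ cells, against 0, 1 and 2 with all libraries. The share of all genes called in that fit is not given here, so the rise cannot be called particular to the 9.

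In the CD45- sort 0 of the 9 genes passed in tumor against anemia cells, where 0.152% of all genes did, and 0 in tumor against neonatal cells, where 2.54% did. At an unadjusted limma p below 0.05 the counts were 0 of 9, against 7.63% of all genes, and 2 of 9, against 11.5%. Gata1, Klf1, Tal1 and Nfe2 each had tumor libraries wholly above the neonatal ones, as did 4.08% of all genes, but none passed, with log2 fold changes of 0.81, 1.10, 0.97 and 1.45 and limma adjusted p of 0.59, 0.183, 0.724 and 0.278. Of the fits leaving out 1 library, Klf1 passed in the one without anemia CD45+ replicate 3 (adjusted p = 0.0441), a library of another group that shares the estimate of spread.

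MDSC gave the myeloid background of these genes. Of the 9, 7 were higher in tumor CD45- cells than in MDSC, where 14.3% of 10255 tested genes were, and 4 were higher in tumor CD45+ cells than in MDSC, where 5.42% were. The share of calls that were higher in tumor CD45- cells was 25.4%, and 47.7% under median-ratio scaling, while for tumor CD45+ cells it was 84.5% and 51.1%. The median log2 fold change of the 9 genes was 4.96 for CD45- cells and 1.46 for CD45+ cells, against -0.56 and 0.16 over all genes.

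Sox6 showed the largest distance from MDSC. It had 10.7, 26.8 and 7.22 in tumor CD45+ cells, 183, 203 and 179 in tumor CD45- cells, and 1.06, 0.501 and 0.151 in MDSC. Its log2 fold change over MDSC was 3.18 ± 0.40 in CD45+ cells (limma adjusted p = 0.00173) and 6.95 ± 0.40 in CD45- cells (adjusted p = 1.38e-07). Klf1 was at 0.899, 0.882 and 0.195 in MDSC, and its log2 fold change over them was 2.35 ± 0.32 in CD45+ cells (adjusted p = 0.0025) and 5.50 ± 0.32 in CD45- cells. Every tumor CD45+ library of Sox6 and of Klf1 was above every MDSC library.

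Zfpm1 and Gata1 were the other 2 called in CD45+ cells, less firmly. Zfpm1 was at 2.82, 0.909 and 0.506 in MDSC, and its log2 fold change in tumor CD45+ cells was 2.07 ± 0.39 (limma adjusted p = 0.0114). That call was lost in the fit of those 2 groups alone (adjusted p = 0.0581) and without MDSC replicate 2 (0.0537) or replicate 3 (0.0606). Gata1 was at 1.43, 0.747 and 0.137 in MDSC against 2.21, 14.0 and 5.14 in tumor CD45+ cells, with a log2 fold change of 1.98 ± 0.48 (adjusted p = 0.0363). It was lost in 8 of the 9 fits without 1 library, with 1.39 (adjusted p = 0.0783) without tumor CD45+ replicate 2 and 1.69 (adjusted p = 0.147) without MDSC replicate 3, and with median-ratio (0.073) or quantile (0.123) scaling, no filter on low values (0.0591) and those 2 groups alone (0.11).

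Gfi1b at 1.34 ± 0.39 did not pass against MDSC in CD45+ cells (limma adjusted p = 0.0678, 0.0234 with the replicate number as a block and 0.0358 with a pseudocount of 0.1). Tal1 overlapped MDSC, where it was at 2.82, 1.26 and 0.349, with a log2 fold change of 1.46 ± 0.60 (adjusted p = 0.187), and 2.21 (adjusted p = 0.0252) without tumor CD45+ replicate 3. Nfe2 stood out from the other erythroid genes in its MDSC level relative to the CD45+ sorts. MDSC held it at 21.9, 21.2 and 23.6, above 2 of the 3 tumor CD45+ libraries and above every anemia and neonatal CD45+ library. Nfe2 differed from MDSC by -0.47 (95% CI -1.11 to 0.18, adjusted p = 0.38) in tumor CD45+ cells and 1.51 ± 0.29 (adjusted p = 0.0011) in tumor CD45- cells. Neutrophil markers summed to 45779 to 69893 in MDSC and 11402 to 30262 in tumor CD45+ cells, and their part in the Nfe2 level of the CD45+ sort was not tested. Bcl11a and Ldb1 did not pass against MDSC in either sort, but median-ratio scaling and quantile normalization each made both higher in tumor CD45- cells, with adjusted p of 0.0346 and 0.0244 for Bcl11a and 0.00339 and 0.0497 for Ldb1. Leaving out haemoglobin genes did so for Ldb1 in both sorts, with adjusted p of 0.0295 in CD45+ and 0.0405 in CD45- cells, and in CD45+ cells so did quantile normalization (0.046) and a fit of all 21 libraries (0.0257).

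**Figure D4:**
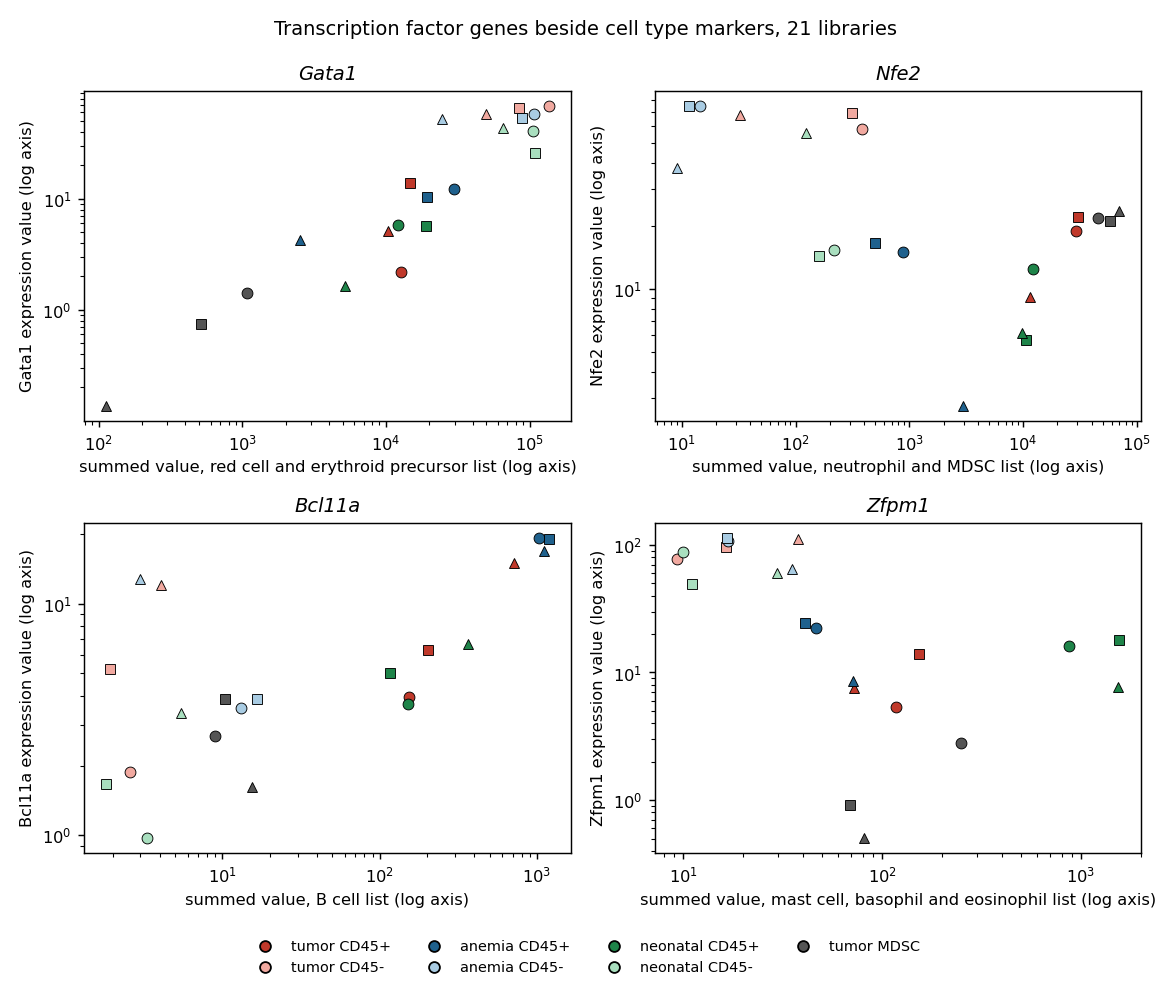
Expression value of Gata1, Nfe2, Bcl11a and Zfpm1 (log axes) against the summed value of a cell type marker list in each of 21 libraries, coloured by group. Gata1 is lowest in MDSC and highest in CD45- cells. The red cell list follows that order but for anemia CD45+ replicate 1, whose sum of 29591 is above the 24573 of anemia CD45- replicate 3. Nfe2 is near 22 in MDSC at the highest neutrophil sums, and Bcl11a is highest in the anemia CD45+ libraries with the highest B cell sums. Zfpm1 is highest in CD45- cells, whose mast cell, basophil and eosinophil sums stay at or below 37.9.

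The order of the 7 groups by mean log2 level was read with the overlap of neighbouring libraries. Klf1 ran from anemia CD45-, tumor CD45-, neonatal CD45-, anemia CD45+, tumor CD45+ and neonatal CD45+ cells down to MDSC, and the libraries of anemia and tumor CD45+ cells were the single pair of neighbours that overlapped. Gata1 had tumor and anemia CD45- cells together at the top, neonatal CD45- cells apart below them, the 3 CD45+ groups overlapping, and MDSC apart at the bottom. Sox6, Zfpm1 and Gfi1b each had the 3 CD45- groups on top, the 3 CD45+ groups under them and MDSC below. Neighbouring groups by mean overlapped within a tier and not between tiers. In Gfi1b, though, anemia CD45+ replicate 3, at 0.991, was below MDSC replicate 1, at 1.19. In Tal1 the highest anemia CD45+ library, 19.7, was above the lowest neonatal CD45- library, 17.3, and neonatal CD45+ cells overlapped MDSC. In Nfe2 every neighbouring pair overlapped. Bcl11a was highest in anemia CD45+ cells, apart from the rest, and lowest in neonatal CD45- cells, and Ldb1 had the 3 CD45+ groups at the top and MDSC lowest.

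Likeness to other genes was measured as the root-mean-square difference of the 7 centred group means on the log2(value + 1) scale, over 6424 genes. The genes nearest to Gata1 were Txnrd2 (0.127), a mitochondrial thioredoxin reductase, Trim58 (0.135), a ubiquitin ligase of late erythroblasts, and Xpo7 (0.140), a nuclear exporter. Sox6 lay near Ermap (0.0895) and Rhd (0.0994), which encode blood group proteins. Gfi1b had Ces2g (0.153), Tfrc (0.186) and Urod (0.192) nearest, Tfrc being the receptor used in the sort. Tal1 had Sh3tc2 (0.137), Mageb16 (0.185) and Uros (0.203), and Klf1 had Slfn14 (0.304), Uros (0.317) and Mageb16 (0.347), Uros being a haem synthesis enzyme. Zfpm1 had Prdx2 (0.204), Slc14a1 (0.217) and Itsn1 (0.237), and Nfe2 had Smim5 (0.283), Rffl (0.294) and Gpsm2 (0.303). Ldb1 had Gtf3c2 (0.0998), Eef1g (0.102) and Slc7a6os (0.105), and Bcl11a had Hmces (0.228), Phtf2 (0.252) and Glcci1 (0.276). Among the 9, Gata1 was nearest to Zfpm1 (0.351), Tal1 (0.358) and Gfi1b (0.376), Klf1 was nearest to Tal1 (0.380), and Bcl11a to Ldb1 (0.595). Of the genes compared, 40, 48 and 54 lay nearer to Gata1 than Zfpm1, Tal1 and Gfi1b did, and 6 lay nearer to Klf1 than Tal1. For Bcl11a, 233 lay nearer than Ldb1, and for Ldb1, 2483 lay nearer than Bcl11a.

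Genes that these factors are known to activate were lower in CD45+ cells throughout the list tested. Of 32 such genes, 32 were lower in tumor, 32 in anemia and 32 in neonatal CD45+ cells, with median log2 fold changes of -3.34, -2.81 and -3.52. Of all genes tested, 10.9%, 11.3% and 10.3% were lower. Hemgn, a nuclear protein gene under GATA1, averaged 18.7 ± 13.9 in tumor CD45+ cells and 293 ± 55.9 in tumor CD45- cells (log2 fold change -4.10, limma adjusted p = 2.63e-05). Slc4a1, the anion exchanger of the red cell membrane, changed by -3.49 and Epor, the erythropoietin receptor, by -2.79 in tumor cells. Against MDSC, 26 of the 32 were higher in tumor CD45+ cells and 32 in tumor CD45- cells, where 5.42% and 14.3% of all genes were. Alas2, the first enzyme of haem synthesis in red cells, was higher by 5.15 and 7.81. Between anemia and neonatal CD45+ cells, where Klf1 differed by 2.16, 1 of the 32, Uros, was higher and 31 did not pass, where 9.08% of all genes were higher, and the median was 0.89. At an unadjusted limma p below 0.05, 7 of the 32 were higher and 0 lower. In the CD45- sort of the same states 0 of the 32 passed, with a median of 0.29, where 0.947% of all genes were higher. At an unadjusted limma p below 0.05 it was also 0 of the 32. The all-gene share at that unadjusted threshold is not given here for either sort.

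Partners and cofactors of the factors held genes that were higher and genes that were lower. Of 29 tested, 4 were higher and 9 lower in tumor CD45+ cells, 6 higher and 10 lower in anemia, and 6 higher and 8 lower in neonatal cells, with medians of -0.12, -0.02 and -0.01. Over all genes 50.2%, 47.4% and 49.6% were higher and 10.9%, 11.3% and 10.3% lower, with medians of 0.75, 0.68 and 0.75, so the list lay below the middle of all genes in each state. Lmo2, the adaptor between TAL1 and LDB1, was lower in all 3 states, with log2 fold changes of -1.79 in tumor (limma adjusted p = 0.00102) and -1.85 in anemia (adjusted p = 0.000798) and an adjusted p of 0.000411 in neonatal cells. Foxo3, a forkhead factor of maturing erythroblasts, changed by -2.20, -1.98 and -1.32. Cbfa2t3, a corepressor of the TAL1 complex, was at -0.12, 0.20 and 0.62 and did not pass. Kdm1a, the demethylase that GFI1B recruits, was higher in anemia at 0.70 (adjusted p = 0.0316), near the all-gene median, and did not pass in tumor (0.22) or neonatal cells (-0.01).

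Factors of earlier or other lineages ran the opposite way. Of 18 tested, 16 were higher in tumor, 12 in anemia and 16 in neonatal CD45+ cells, and 0 were lower, also at an unadjusted limma p below 0.05, with median log2 fold changes of 2.76, 2.29 and 2.43. Of all genes 50.2%, 47.4% and 49.6% were higher, with medians of 0.75, 0.68 and 0.75. Leukocyte markers moved with these factors: neutrophil markers were higher in tumor, anemia and neonatal CD45+ cells in 16, 16 and 16 of 16, B cell markers in 11, 11 and 10 of 11, and T and NK cell markers in 11, 12 and 8 of 12. Ebf1 and Pax5 are in both the factor list and the B cell list, so these lists are not independent. T and NK cell markers summed to 51.1 to 136 in tumor, 183 to 314 in anemia and 24.1 to 70.1 in neonatal CD45+ libraries, and to at most 8.32 in any CD45- library, and the part of leukocytes in the values of these factors was not tested. Spi1, the myeloid and B cell factor PU.1, was at 65.7, 110.5 and 42.8 in tumor CD45+ cells and at 1.21, 0.615 and 1.14 in tumor CD45- cells, and MDSC held 158, 162 and 108. Fli1 was higher by 4.23 on the log2 scale in tumor, 4.01 in anemia and 3.04 in neonatal CD45+ cells. It was at 33.2, 27.6 and 24.4 in tumor CD45+ cells and at 36.1, 30.8 and 26.6 in MDSC. Gfi1, the paralogue of Gfi1b that acts in neutrophils, was higher by 3.19, 2.40 and 2.61. Gata2, which precedes GATA1 in progenitors and is held by mast cells, was at 4.64, 7.71 and 9.90 in neonatal CD45+ cells and at most 0.268 in neonatal CD45- cells (log2 fold change 2.80, limma adjusted p = 2.28e-08), with 0.73 in tumor (adjusted p = 0.00877) and 0.26 in anemia (adjusted p = 0.335). Mast cell, basophil and eosinophil markers summed to 868 to 1558 in neonatal CD45+ libraries and to at most 154 in the other CD45+ libraries, and their part in the Gata2 result was not tested. Gata2 is itself in that marker list, so its own values enter these sums.

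The globin genes that BCL11A and SOX6 silence were near 0 throughout. Hbb-y was at most 0.0541 in tumor CD45+ cells and 1.67 in tumor CD45- cells, at most 0.161 in anemia CD45+ and 1.16 in anemia CD45- cells, and at most 0.427 in neonatal CD45+ and 0.942 in neonatal CD45- cells. Hbb-bh1 did not exceed 0.625 and Hba-x did not exceed 2.01 in any library, and all 4 listed embryonic globin genes were listed at 0 in each MDSC library. Hbb-y alone passed the filter on low values, through 3 CD45- libraries that reached a value of 1, and its difference between the sorts is therefore given as values only. Adult globins took 4.96% to 6.52% of all values in tumor CD45+ libraries and 20.8% to 46.2% in tumor CD45- libraries, and all 4 adult globin genes in the table were lower in CD45+ cells in each state.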

How the data were processed

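Total RNA was sequenced after TruSeq library preparation, per the labels' protocols. Their extraction text mentions retinas, though every tissue label reads spleen. Bowtie 0.12.2 and build mm8 are named for alignment, per the submitters' processing notes. The authors deposited log2 expression values per gene and library. The scale behind the log, the quantification tool, its annotation and any strand setting are not given in the sources used here. Blank cells (7.90%) were taken as 0. Counts of reads are not given, and counting error was therefore not estimated. Where a symbol stood on several lines (8 symbols), that with the higher mean was used.

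Values were taken out of the log and analysed as log2(value + 1), with no further scaling. A gene was tested if 3 or more libraries of the fit reached a value of 1. That left 11195 genes for the 18 Ter119+CD71+ libraries and 10255 for the 9 libraries of tumor carriers, which served the MDSC comparisons. Group means were fitted with limma (version 3.58.1 under R 4.3.3; statmod 1.5.0), trend and robust settings on, two-sided. P-values were Benjamini-Hochberg adjusted over all genes tested, with a threshold of 0.05, and the fit was tested on simulated data. Ratios to Gata1 used exact permutation. Group comparisons share libraries: each CD45 contrast uses groups that also enter the comparisons between states, and both MDSC comparisons use the same 3 MDSC libraries. Promoters are RefSeq's, on GRCm38.p6, and exon overlaps come from GENCODE vM21; no coordinate of the aligned build is used.

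The 9 genes, the lists of targets, partners, other factors and cell type markers, and the tests were chosen with earlier results of these data known. Named were the 9 genes, genes marked for naming in the lists whatever their values, and the 3 nearest genes of each, of which 1 is not reported here. The B cell marker Cd79a and the target Uros were named after their values were seen.

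Replicate numbers come from the titles, and the labels do not say what a number marks. Deviations from group means correlated over 0.1 in all 3 same-numbered pairs for 6 of 21 group pairs. These were the 3 CD45 contrasts (0.112 to 0.272 in tumor, 0.109 to 0.226 in anemia, 0.215 to 0.362 in neonatal cells), tumor CD45+ with neonatal CD45+ cells, and tumor CD45+ and anemia CD45+ cells with MDSC. All 3 numbers were best matched in 4 of the 21, tumor CD45- with neonatal CD45- cells among them, which is outside the 6. In tumor CD45+ with tumor CD45- cells 1 number was. A pairing by number in the 6 is therefore possible and not shown. It entered the replicate-block alternative, and the main fits and the exact test do not use it.

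Alternatives were a pseudocount of 0.1, no filter or a value of at least 5, median-ratio scaling, quantile normalization, haemoglobin genes left out with values rescaled, no trend or robust option, all 21 libraries or only the groups compared, a replicate block, each library left out, and Ldb1 in place of Gata1 in the ratios.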

Additional observations from a re-analysis of the deposited data

How the results depend on the processing

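The 7 genes lower in CD45+ cells kept their direction and their calls in all 3 states under each alternative that kept every library, and the lowest count of called genes without 1 library was 7 in tumor, 7 in anemia and 6 in neonatal cells (highest 8, 9 and 8). The replicate number as a block raised the count of called genes to 1 in tumor against anemia CD45+ cells (Bcl11a, -1.21, adjusted p = 0.0296) and to 2 in anemia against neonatal CD45- cells (Bcl11a, 1.24, adjusted p = 0.047), in group pairs whose numbers were not shown to pair the libraries, and apart from Bcl11a in neonatal cells and Gfi1b against MDSC it changed no other call. Klf1 in tumor against neonatal CD45+ cells left a count of 0 under a value of at least 5, median-ratio scaling, quantile normalization, haemoglobin genes left out, no trend or robust option, and only the groups compared. Quantile normalization gave 1 call in tumor against anemia CD45+ cells, a pseudocount of 0.1 left 1 in anemia against neonatal CD45+ cells, and only the groups compared left 2 in tumor CD45+ cells against MDSC. Without 1 library the counts ran from 0 to 3 in tumor against anemia CD45+ cells, 0 to 1 in tumor against neonatal CD45+ cells, 1 to 3 in anemia against neonatal CD45+ cells, 0 to 1 in tumor against neonatal CD45- cells and 2 to 4 in tumor CD45+ cells against MDSC. With replicate 3 of every group left out, an alternative chosen after seeing the data, the counts were 8, 9 and 9 for CD45+ against CD45- cells in tumor, anemia and neonatal cells, 5, 3 and 6 between CD45+ states (tumor against anemia, tumor against neonatal, anemia against neonatal), 4 in tumor and 3 in anemia against neonatal CD45- cells, 2 in tumor CD45+ cells against MDSC, and 1 in the interaction of anemia and neonatal cells (Nfe2, -1.44). Shares of all genes called in that fit are not given here, so these counts cannot be set against them.

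Ldb1 in tumor CD45+ against CD45- cells turned to -0.19 under median-ratio scaling. Relative to Ldb1 in place of Gata1, the CD45 difference was -3.90 for Klf1, -3.70 for Gfi1b, -3.34 for Zfpm1, -4.08 for Tal1 and -2.72 for Nfe2, since Ldb1 was not lower in CD45+ cells, and 0.31 for Bcl11a (adjusted p = 0.242). With a pseudocount of 0.1 the ratio to Gata1 was -0.65 for Sox6 (adjusted p = 0.098) and 1.03 for Nfe2 (adjusted p = 0.0607). With 1 library left out it ran from -0.90 to -0.53 for Sox6 and from 0.70 to 1.07 for Nfe2.

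Counts over all genes moved by more than 1.5 times in these comparisons, and the cause was not tested. Against a main count of 1201 in tumor against anemia CD45+ cells the alternatives gave 75 to 1642, against 740 in tumor against neonatal CD45+ cells 140 to 1238, against 2277 in anemia against neonatal CD45+ cells 1397 to 3085, against 17, 284 and 486 in the same comparisons of CD45- cells 1 to 41, 149 to 707 and 223 to 810, against 246, 121 and 776 in the interactions 61 to 384, 68 to 233 and 349 to 1073, and against 658 in tumor CD45+ cells against MDSC 238 to 1109. Quantile normalization made the share of higher calls 33.7%, against 15.8% without it, in tumor against neonatal CD45- cells, 41.5%, against 21.8%, in anemia against neonatal CD45- cells (35.8% under median-ratio scaling), 65.7%, against 84.5%, in tumor CD45+ cells against MDSC and 51.5%, against 25.4%, in tumor CD45- cells against MDSC. It was 41.5% against 54.2% in tumor against anemia CD45+ cells and 57.8% against 44.6% in anemia against neonatal CD45+ cells with haemoglobin genes left out, where the all-gene medians were -0.18 and 0.12. In the tumor minus neonatal interaction median-ratio scaling made it 67.4%, against 47.1%, and in the tumor minus anemia interaction it was 68.2% with haemoglobin genes left out and 70.6% under quantile normalization, against 82.1%. With 3 libraries a group and no read depth, the width of the intervals given limits what could be detected.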
